A study of Mus musculus with 8 samples.

Results

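Cell-cycle and proliferation genes were followed in the dorsal dentate gyrus of wild-type mice and of mice lacking Cav3.1, a calcium channel of the T type. The set was 32 genes chosen by name, of which 31 had a probe on the array and 30 entered the test, out of 19321 gene symbols and 23473 probes on the array, 21150 of them tested. Each gene with a probe had 1 probe, so the rule of taking the brightest probe decided nothing, and all 31 gene identifiers carried the same symbol in the RefSeq gene table. Ccnb1, the main B-type cyclin of mitosis, had no entry in the probe table used, so its level was not analysed here. Its promoter is in the motif counts below. Cdk1 was described but not tested, because 1 of its spots was marked as not good. By role, 10 members belong to S phase, 19 to the late cycle and mitosis (18 of them with a probe), and 3 to G1 and its exit.

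Total RNA was compared between 4 arrays of wild-type mice (WT) and 4 arrays of mice lacking Cav3.1 (Cav3.1 KO), all male C57BL/6J mice of 8 to 12 weeks. Cav3.1 is the pore subunit encoded by Cacna1g. The labels name no promoter, Cre or clone and no agent given to either group, and how the knockout allele was made was not given in the sources used here. Whether every array stands for its own animal is not said, so a p-value here covers only the spread among these 8 samples, part of which may be technical. In bulk tissue, fewer cells of a type and less RNA per cell cannot be told apart.

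Dividing cells copy their DNA in S phase, when the Mcm helicase is loaded and fired and Pcna clamps the polymerases to the template, and they segregate it in mitosis under Cdk1, the Polo and Aurora kinases and the spindle checkpoint. Promoters of S phase genes typically carry E2F sites, and promoters of mitosis genes typically carry CCAAT boxes and a cell cycle homology region, through which the genes of each phase are switched on together. The adult dentate gyrus is one of the few regions of the brain where neurons are still produced, from progenitors dividing in the subgranular zone. Progenitors are a small minority of its cells, and microglia, endothelium and oligodendrocyte precursors can divide there too.

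The promoters below are those of Mcm5, picked as a member with an unadjusted limma p under 0.05, and of Mki67 and Top2a, often used to mark dividing cells. They are the 250 bases before the annotated start, 5′ to 3′ on the gene's strand, from RefSeq on build GRCm38.p6. Capitals mark matches on either strand to TTTGAA (the cell cycle homology region), to CCAAT (the CCAAT box), and to an E2F-type motif. The E2F-type forms searched were TTGGCGC, found in the Mki67 promoter, TTCGCGC, found in the Mcm5 promoter beside the first form, and in addition TTCCCGC and likewise TTGCCGC. Mcm5 (chr8:75109259-75109508, plus strand), a helicase subunit, held 3 E2F-type and 2 CCAAT matches, and 2 of the E2F-type matches shared bases. Mki67 (chr7:135716380-135716629, minus strand), which encodes the proliferation marker Ki-67, held 2 TTTGAA, 3 CCAAT and 1 E2F-type match. Top2a (chr11:99024190-99024439, minus strand), the topoisomerase that untangles sister chromatids, held 2 TTTGAA and 6 CCAAT matches.
Mcm5: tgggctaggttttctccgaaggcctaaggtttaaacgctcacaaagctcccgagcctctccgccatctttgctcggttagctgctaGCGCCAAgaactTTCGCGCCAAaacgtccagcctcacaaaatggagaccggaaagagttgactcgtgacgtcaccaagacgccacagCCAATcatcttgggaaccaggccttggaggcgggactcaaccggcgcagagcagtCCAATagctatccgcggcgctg
Mki67: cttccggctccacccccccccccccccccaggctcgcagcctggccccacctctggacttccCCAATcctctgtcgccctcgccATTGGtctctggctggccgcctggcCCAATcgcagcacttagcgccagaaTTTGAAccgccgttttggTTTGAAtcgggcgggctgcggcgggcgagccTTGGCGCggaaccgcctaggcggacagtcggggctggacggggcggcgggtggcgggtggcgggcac
Top2a: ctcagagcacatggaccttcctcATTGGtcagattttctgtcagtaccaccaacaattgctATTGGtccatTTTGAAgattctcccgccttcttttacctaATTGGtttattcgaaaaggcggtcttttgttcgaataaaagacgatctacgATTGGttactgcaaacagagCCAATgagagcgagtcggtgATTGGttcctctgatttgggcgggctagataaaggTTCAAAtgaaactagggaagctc

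Across the members the same motifs were counted in windows from 250 bases before to 50 bases after the start. Of the 32 members, 28 had 30 such windows (Mcm7 and Prc1 had 2 each). TTTGAA was in 14 of 18 windows of mitosis members (77.8%) and in 1 of 10 of S phase members (10%), and in 17.9% of all 32851 promoter windows in the table. E2F-type matches were in 7 of 10 S phase windows (70%) and 3 of 18 mitosis windows (16.7%), against 9.57% of all windows. CCAAT was in 9 of 10 S phase windows (90%) and 16 of 18 mitosis windows (88.9%), against 37.4% of all. TTTGAA and CCAAT stood in the same window in 77.8% of mitosis windows and 6.95% of all. Aurka also had an unadjusted limma p under 0.05, but its promoter is not shown. Its 250 bases before the start held 2 CCAAT matches, no TTTGAA and no E2F-type match. A TTTGAA match of Aurka lay after the start. Of the 2 G1 windows, those of Cdk2 and Ccne1, none held TTTGAA. A match is a description of the letters and was not tested as a binding site.

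The first question was how many of these genes gave a signal above empty positions of the array. On every array all 10 S phase members and all 3 G1 members were brighter than a limit set at the 95th percentile of the blank spots, which hold no probe, on the same array. The 18 mitosis members with a probe were less uniformly above it, at 18, 18, 17 and 18 on WT replicates 1 to 4 and at 16, 17, 17 and 15 on Cav3.1 KO replicates 1 to 4. Over all 31 members the counts were 31, 31, 30 and 31 on the WT arrays and 29, 30, 30 and 28 on the Cav3.1 KO arrays, while 85.4% to 93.0% of all probes passed the same limit. In all, 28 of 31 members passed it on all 8 arrays. The 3 that did not were all mitosis genes: Plk1, the Polo kinase of mitotic entry, on 7 arrays, Bub1, a kinase of the spindle checkpoint, on 5, and Prc1, which bundles microtubules of the central spindle, on 4.

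Passing the blank limit did not mean a strong signal. At 1.5 times the mean of the blank spots, 15, 14, 14 and 15 members stood on the WT arrays and 12, 13, 14 and 14 on the Cav3.1 KO arrays, of 31, while 47.8% to 54.2% of all probes were that bright. At 2 times the blank mean the counts were 11, 11, 9 and 9 in WT and 8, 8, 9 and 9 in Cav3.1 KO, against 35.3% to 41.8% of all probes. Blank spots themselves averaged 53.0 to 59.7 intensity units on the WT arrays and 56.2 to 63.4 on the Cav3.1 KO arrays.

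**Figure D1:**
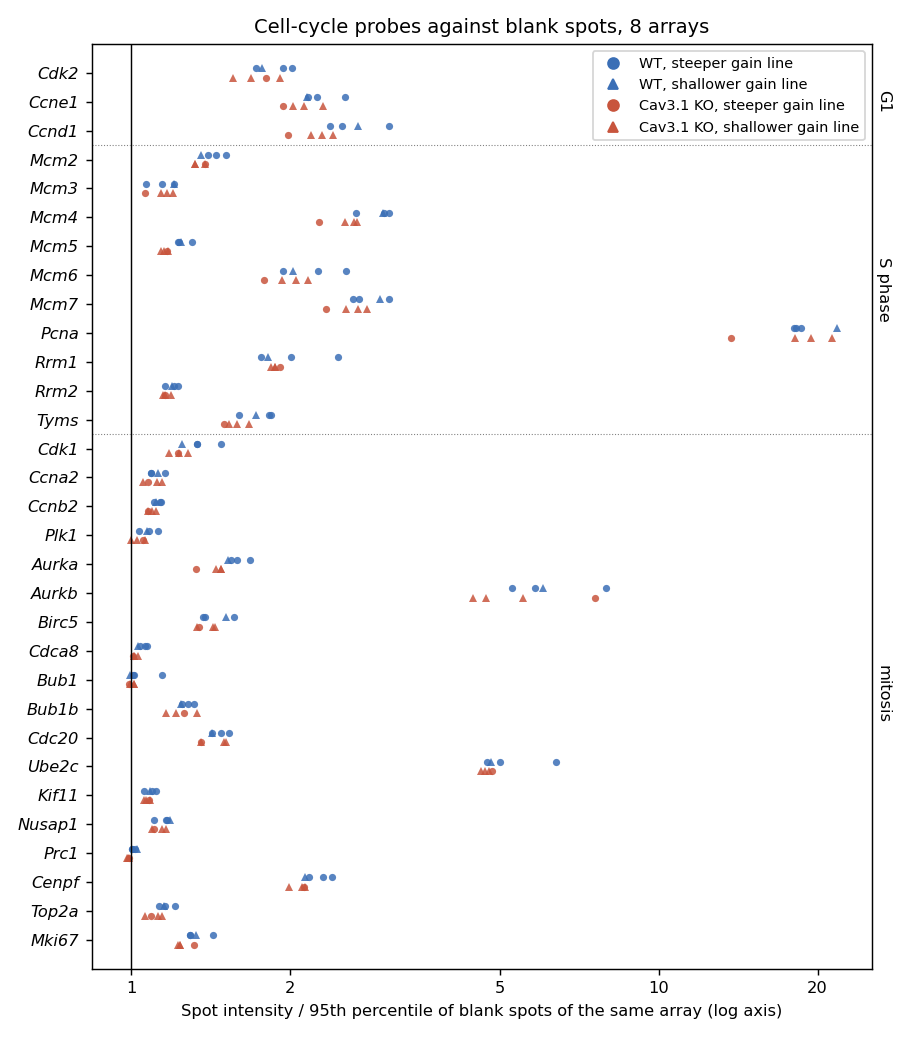
Spot intensity of each member divided by the 95th percentile of the blank spots of the same array, on a log axis, with 1 point per array (circles and triangles are the classes of arrays by the slope between scan gains given in their headers). The vertical line at 1 is the blank limit: every S phase and G1 point lies to its right, and Prc1, Bub1 and Plk1 have points at or left of it.

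The bright members were few. Pcna, the sliding clamp of DNA synthesis, had a mean spot intensity 19.3 times the blank mean, with spot intensities of 988, 1028, 1359 and 1041 in WT and 797, 1269, 1316 and 1157 in Cav3.1 KO. Aurkb, the kinase of the chromosomal passenger complex, stood at 6.14 times the blank mean, and Ube2c, the ubiquitin-conjugating enzyme of the anaphase-promoting complex, at 5.16 times. The helicase subunits Mcm4 and Mcm7 stood at 2.84 and 2.82 times. These ratios are each probe's margin over the blank spots and do not rank the genes, since probes differ in how they bind.

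The genes used most often to mark dividing cells were dim. Spot intensities of Mki67 were 70.8, 79.2, 82.9 and 73.8 in WT and 76.3, 81.0, 76.3 and 78.4 in Cav3.1 KO, 1.34 times the blank mean. Those of Top2a were 66.5, 64.2, 72.3 and 64.6 in WT and 63.4, 73.5, 70.8 and 67.8 in Cav3.1 KO, 1.18 times the blank mean. For both genes the groups overlapped. Prc1 was above the limit on all 4 WT arrays, with spot intensities of 55.1, 55.6, 64.2 and 58.2, and on none of the Cav3.1 KO arrays, with 57.5, 64.6, 61.3 and 62.7. Its raw values were thus not lower in Cav3.1 KO, where the blank limit itself was higher on average. It entered the test through the WT arrays alone. Its normalised log2 intensities overlapped between the groups, with means of 5.79 ± 0.034 for WT and 5.76 ± 0.014 for Cav3.1 KO (SD, n = 4 each), and no fold is given.

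The comparison of Cav3.1 KO with WT asked whether loss of the channel went with a change of these genes. None of the 30 tested members was called at a Benjamini-Hochberg adjusted p under 0.05 in limma, where 0.288% of all tested probes were called, 0.199% higher and 0.0898% lower. Their adjusted p-values ran from 0.478 to 0.998. At an unadjusted p under 0.05 there were 3 of 30 members, all lower in Cav3.1 KO, where 8.1% of all probes stood in either direction, 3.76% on the higher side and 4.34% on the lower. The groups did not overlap for 2 members, Mcm5 and Cdca8, both lower in Cav3.1 KO, where 4.95% of all probes did not overlap, 2.42% with Cav3.1 KO higher and 2.53% with it lower. Differences in normalised log2 intensity were below 0 for 23 of 30 members, where 50.7% of all probes had one below 0. Prc1, which entered the test through the WT arrays alone, is among the 23 and in the counts of mitosis members below. They were small, with a median size of 0.024, and members share cells and arrays, so their common sign is not evidence from independent genes.

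Cacna1g was above the blank limit on all 8 arrays, with normalised log2 intensities of 6.43, 6.61, 6.53 and 6.61 in the arrays labelled WT and 6.55, 6.43, 6.39 and 6.48 in those labelled Cav3.1 KO. The difference was -0.082 ± 0.051 (SE), with an adjusted p of 0.816 in limma, and the groups overlapped. Where the probe lies relative to the deleted part was not determined, so its level does not check the labels. All directions below therefore rest on the labels.

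Arrays also differed in a technical respect that moved with the groups in part. Their headers give slopes that relate the 3 scan gains, and the slope from gain 1 to gain 3 was 0.244 to 0.247 on WT replicates 1, 2 and 4 and Cav3.1 KO replicate 1 (the steeper class), and 0.235 to 0.236 on WT replicate 3 and Cav3.1 KO replicates 2, 3 and 4 (the shallower class). These names refer to that slope only. The slope from gain 1 to gain 2 went the other way, at 0.478 to 0.480 in the steeper class and 0.485 to 0.486 in the shallower. Blank spots averaged 53.0 to 56.2 in the steeper class and 59.7 to 63.4 in the shallower class, without overlap. Within each class 1 group has 1 array, so differences there are values with no test. Values within each class are given beside the members described at most length below, and no member was called with the block either, where 23 probes were.

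Among the S phase members none was called, 1 stood at an unadjusted p under 0.05, and 3 had a difference above and 7 below 0. Their median difference was -0.018 in log2 intensity, against -0.00078 over all probes. The mean of the 10 members was 6.94, 6.90, 6.96 and 6.96 on the WT arrays and 6.88, 6.93, 6.94 and 6.94 on the Cav3.1 KO arrays, that is 6.94 ± 0.029 and 6.92 ± 0.028 (SD, n = 4 each). The groups overlapped, and Cav3.1 KO replicate 1 stood below every other array. The median difference was -0.050 with the gain class as a block, -0.048 within the steeper class and -0.034 within the shallower.

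The Mcm subunits form the ring that unwinds DNA at the fork. Mcm5 was the subunit whose groups did not overlap, with normalised log2 intensities of 6.07, 6.11, 6.12 and 6.13 in WT and 6.06, 6.01, 5.98 and 6.07 in Cav3.1 KO. Every Cav3.1 KO array lay below every WT array, with Cav3.1 KO replicate 4 just under WT replicate 1. The difference was -0.078 ± 0.029 (SE), with an unadjusted p of 0.027 and an adjusted p of 0.511 in limma. An exact two-sided permutation test gave p = 0.0286, the smallest that 4 against 4 arrays can give. That value follows from groups that do not overlap, found for 4.95% of all probes and for 2.53% with Cav3.1 KO lower. The difference was -0.046 within the steeper class of arrays and -0.10 within the shallower, and the unadjusted limma p was 0.075 with the class as a block.

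Mcm4 read 7.37, 7.28, 7.40 and 7.35 in WT and 7.17, 7.32, 7.20 and 7.32 in Cav3.1 KO. Cav3.1 KO replicates 1 and 3 were lowest, and replicates 2 and 4 lay within the WT range. The difference was -0.099 ± 0.045 (SE, unadjusted p 0.061 and adjusted p 0.657 in limma), and -0.14 with the gain class as a block (unadjusted p 0.014, adjusted p 0.359). It was -0.16 within the steeper class and -0.12 within the shallower.

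Mcm2, Mcm3, Mcm6 and Mcm7 had differences between -0.039 and 0.0057, each with a 95% interval that held 0. One WT array set the spread of Mcm2, which was 6.26, 6.25, 6.25 and 6.46 in WT, with replicate 4 high, and 6.22 to 6.35 in Cav3.1 KO. Over the 6 subunits 5 differences were below 0 and the median was -0.034.

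The other 4 S phase members supply the clamp and the nucleotides. Pcna had the largest difference above 0 of all tested members, 0.14 ± 0.11 (SE, adjusted p 0.891 in limma), from 9.90, 9.88, 10.21 and 10.14 in WT and 9.93, 10.29, 10.33 and 10.14 in Cav3.1 KO. The 4 arrays of the shallower class held the 3 highest values and 1 of the 2 tied at 10.14, and with that class as a block the difference was 1.3e-05. Tyms, the thymidylate synthase, was 6.66, 6.55, 6.60 and 6.55 in WT and 6.48, 6.52, 6.57 and 6.49 in Cav3.1 KO, and its difference was -0.078 ± 0.034 (SE) with an unadjusted p of 0.051 and an adjusted p of 0.620 in limma. Rrm1 and Rrm2, the large and small subunits of ribonucleotide reductase, had differences of 0.016 ± 0.069 and -0.0048 ± 0.026 (SE).

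**Figure D2:**
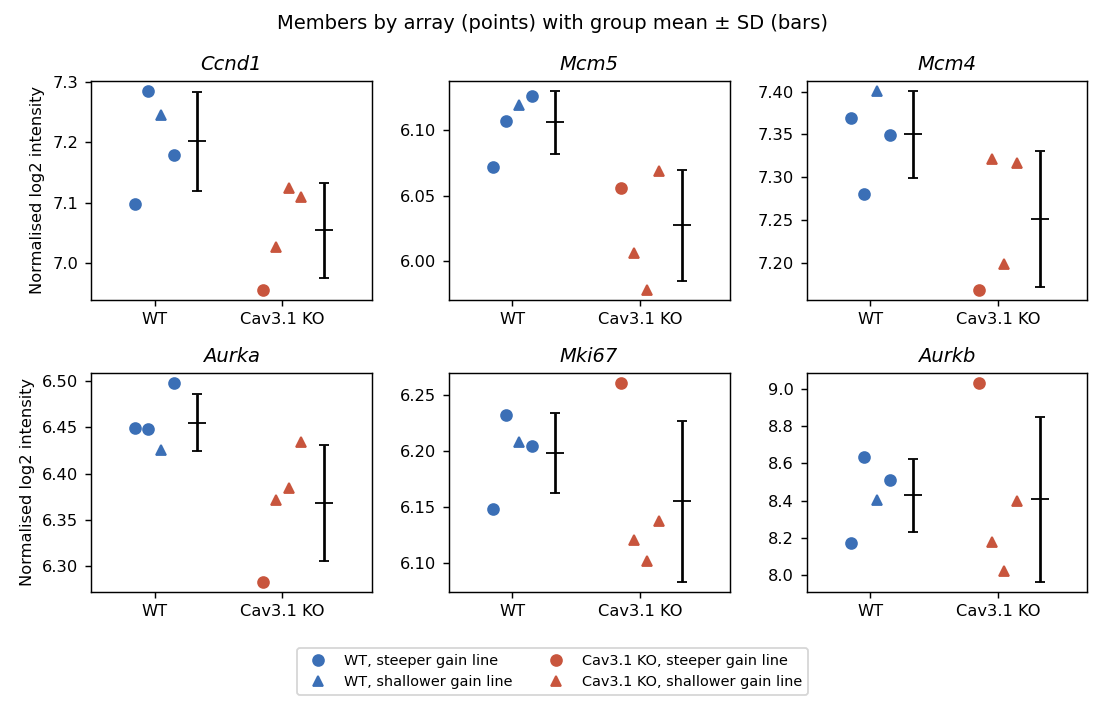
Normalised log2 intensity of 6 members on each array, with the group mean and SD (bars, n = 4 each), each panel on its own axis that does not start at 0. The groups do not overlap for Mcm5 and overlap in the other panels; Cav3.1 KO replicate 1 (the red circle) is the highest Cav3.1 KO array for Aurkb and Mki67 and the lowest for Ccnd1, Mcm4 and Aurka.

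Of the G1 members, Ccnd1 had the largest difference, and on the normalised scale the largest of all 30 tested members, though not after subtraction of the blank mean. It encodes cyclin D1, which couples growth signals to entry into the cycle and is also made in cells that do not divide. It read 7.10, 7.28, 7.25 and 7.18 in WT and 6.96, 7.03, 7.12 and 7.11 in Cav3.1 KO. WT replicate 1 lay inside the Cav3.1 KO range, and the other WT arrays lay above all Cav3.1 KO arrays. The difference was -0.15 ± 0.053 (SE, 95% interval -0.27 to -0.027), with an unadjusted p of 0.023 and an adjusted p of 0.478 in limma, and the exact two-sided permutation test gave p = 0.0857. It was -0.20 with the gain class as a block (unadjusted p 0.0084, adjusted p 0.309 in limma), -0.23 within the steeper class of arrays and -0.16 within the shallower.

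Cdk2, the kinase of the G1 to S transition, and Ccne1, its cyclin E1 partner, had differences of -0.0035 ± 0.068 and -0.0066 ± 0.051 (SE). Ccne1 read 6.94, 7.01, 6.92 and 7.02 in WT and 6.92, 6.90, 6.93 and 7.11 in Cav3.1 KO, with the last replicate above all other arrays.

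Among the mitosis members none of 17 tested was called, 1 stood at an unadjusted p under 0.05, and 4 had a difference above and 13 below 0. Their median difference was -0.019 in log2 intensity. The mean of the 17 tested members was 6.37, 6.35, 6.36 and 6.37 on the WT arrays and 6.39, 6.33, 6.31 and 6.34 on the Cav3.1 KO arrays, that is 6.36 ± 0.0090 and 6.34 ± 0.034 (SD, n = 4 each). Cav3.1 KO replicate 1 was the highest of all 8 arrays and the other Cav3.1 KO arrays were the lowest, so the groups overlapped through 1 array. The high mean of that array rested largely on Aurkb, which read 9.03 there and 8.02 to 8.63 on the other arrays. The median difference was -0.029 with the gain class as a block, -0.0098 within the steeper class and -0.026 within the shallower.

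Of the kinases of mitosis and the cyclins that drive Cdk1, 1 stood at an unadjusted p under 0.05. Aurka, the kinase of the spindle poles, read 6.45, 6.45, 6.43 and 6.50 in WT and 6.28, 6.37, 6.38 and 6.43 in Cav3.1 KO. Cav3.1 KO replicate 4 lay just above the lowest WT array, and the other 3 lay below all WT arrays. The difference was -0.087 ± 0.036 (SE), with an unadjusted p of 0.043 and an adjusted p of 0.590 in limma, and the exact two-sided permutation test gave p = 0.0571. It was -0.11 with the gain class as a block (unadjusted p 0.040, adjusted p 0.477 in limma), -0.18 within the steeper class of arrays and -0.028 within the shallower.

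Aurkb had the widest interval of all tested members on the normalised scale. It read 8.17, 8.63, 8.40 and 8.51 in WT and 9.03, 8.18, 8.02 and 8.39 in Cav3.1 KO, so the highest and the lowest array were both of Cav3.1 KO. The difference was -0.022 ± 0.21 (SE, adjusted p 0.998 in limma), with a 95% interval from -0.50 to 0.46. Within the steeper class it was 0.60 and within the shallower -0.20.

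Plk1, the Polo kinase, had a difference of -0.046 ± 0.031 (SE), and the partners of Cdk1, Ccna2 and Ccnb2, had differences of -0.0016 ± 0.035 and -0.019 ± 0.028. Cdk1 itself read 6.19, 6.14, 6.12 and 6.43 in WT and 6.15, 6.17, 6.10 and 6.07 in Cav3.1 KO, with WT replicate 4 apart from the rest. With flagged spots kept, its difference was -0.098 and its adjusted p in limma 0.852.

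Of the chromosomal passengers and the checkpoint genes, 1 had groups that did not overlap. Cdca8, which encodes borealin, a targeting subunit of Aurkb, read 5.86, 5.85, 5.84 and 5.84 in WT and 5.79, 5.82, 5.79 and 5.83 in Cav3.1 KO, without overlap. Its difference was -0.038 ± 0.022 (SE), with an unadjusted p of 0.129 and an adjusted p of 0.799 in limma. Its spot intensities were 58.2, 59.3, 64.3 and 59.5 in WT and 58.5, 67.3, 62.6 and 64.7 in Cav3.1 KO, 1.07 times the blank mean, and these overlapped. Birc5, which encodes survivin, had a difference of -0.014 ± 0.060 (SE), and the checkpoint kinases Bub1 and Bub1b had -0.044 ± 0.046 and 0.0091 ± 0.050. WT replicate 1 alone was high for Bub1, at 5.97 against 5.76 to 5.80 on the other 7 arrays.

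Both members that work with the anaphase-promoting complex had differences just above 0. Cdc20, its activator, had 0.024 ± 0.041 (SE), and Ube2c had 0.023 ± 0.069 from 8.09, 8.32, 8.08 and 8.20 in WT and 8.36, 8.17, 8.13 and 8.13 in Cav3.1 KO. The groups overlapped for both genes.

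The remaining 6 mitosis members build the spindle, compact the chromosomes or split the cell, and 5 of them had a difference below 0. Mki67 read 6.15, 6.23, 6.21 and 6.20 in WT and 6.26, 6.12, 6.10 and 6.14 in Cav3.1 KO. The difference was -0.043 ± 0.040 (SE), at an adjusted p of 0.936 in limma. Cav3.1 KO replicate 1 was the highest array of all and the other Cav3.1 KO arrays the lowest, and the difference was 0.066 within the steeper class and -0.089 within the shallower. Top2a had a difference of -0.052 ± 0.031 (SE, adjusted p 0.805 in limma), and it was -0.061 and -0.058 within the classes. Kif11, the motor that pushes spindle poles apart, Nusap1, a spindle microtubule protein, and Cenpf, a kinetochore protein, had differences between -0.0077 and 0.0019.

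**Figure D3:**
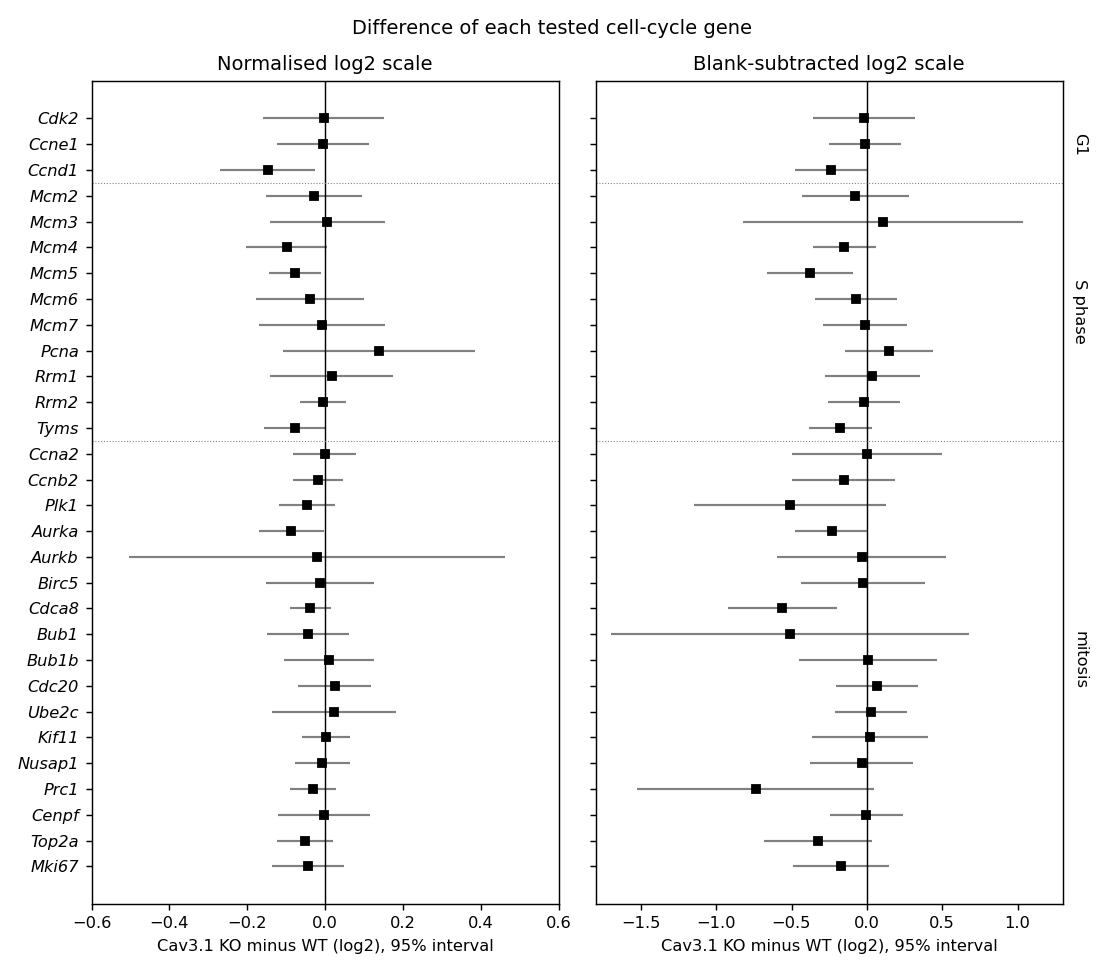
Difference of each tested member, Cav3.1 KO minus WT, with its 95% interval from limma (n = 4 each), on the normalised log2 scale (left) and after subtraction of each array's blank mean (right, a wider axis). On the left Ccnd1, Mcm5 and Aurka have intervals that leave out 0; on the right Ccnd1, Mcm5 and Cdca8 do, and the intervals of the dim genes Bub1, Prc1, Plk1 and Mcm3 are widest.

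How small a change these arrays could have shown depended on brightness. On the normalised scale, which holds an offset of 50 that shrinks differences of dim probes, the 95% intervals of all 30 tested members lay within 1.5-fold in either direction. After subtraction of the blank mean, 22 of 30 intervals lay within 1.5-fold and 26 within 2-fold. Prc1, Bub1, Plk1 and Mcm3 did not. The blank-subtracted difference of Bub1 was -0.51 on the log2 scale, with an interval from -1.70 to 0.68. That of Prc1 is not given, since it was above the blank limit on no Cav3.1 KO array. For these 4 dim genes a 2-fold difference in at least 1 direction lay within the interval. For Mki67 the blank-subtracted difference was -0.17, with an interval from -0.49 to 0.15. Those of Mcm5 and Cdca8 were -0.38 (-0.66 to -0.095) and -0.56 (-0.92 to -0.20), and none of the 30 was called on this scale either.

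**Figure D4:**
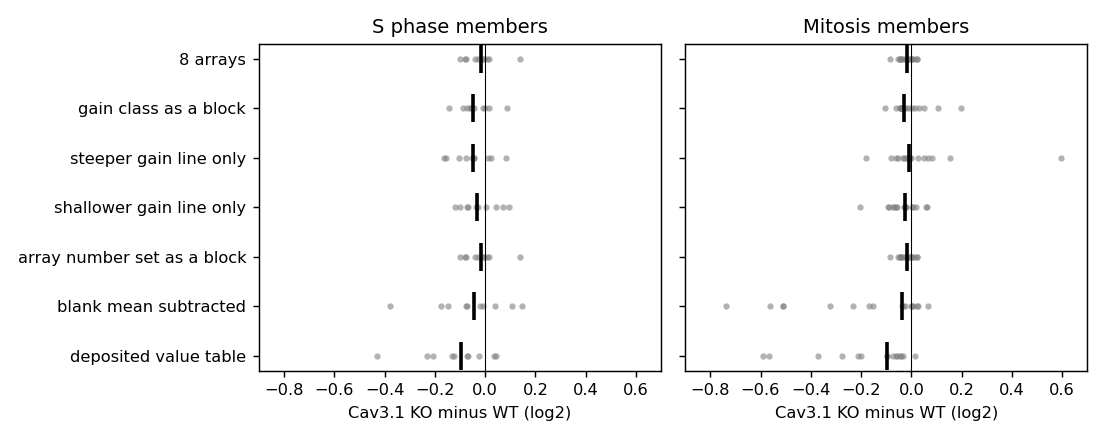
Difference, Cav3.1 KO minus WT in log2, of each S phase member (left) and mitosis member (right) under 7 ways of processing (grey points), with their median (black bar). The medians lie at or below 0 in every line, and lie farthest from 0 with the deposited value table, where the median over all probes is also below 0 at -0.066.

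Further genes of the same phases were read from longer lists. Of 28 further S phase genes with a probe, all tested, none was called, 18 had a difference above and 10 below 0, and their median difference was 0.015. The 3 with the smallest p were Slbp, which binds histone mRNA, at 0.10 ± 0.059 (SE), Cdt1, a licensing factor, at 0.039 ± 0.025, and Fen1, the flap endonuclease of lagging strands, at 0.060 ± 0.042, with adjusted p-values of 0.765, 0.831 and 0.868 in limma. Of 40 further mitosis genes with a probe, 36 passed the filter and none was called. Of these, 17 had a difference above and 19 below 0, with a median of -0.00062.

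Cenpa, the histone of the centromere, had the smallest p of the further mitosis genes. It read 6.88, 6.62, 6.91 and 6.85 in WT and 7.24, 6.96, 7.19 and 7.15 in Cav3.1 KO, where every array lay above every WT array. Among all probes 4.95% did not overlap, 2.42% with Cav3.1 KO higher. For groups that do not overlap, the exact two-sided permutation test always gives p = 0.0286, the smallest possible, so it adds nothing here. The difference was 0.32 ± 0.079 (SE), with an adjusted p of 0.237 in limma. It was 0.46 within the steeper class of arrays and 0.19 within the shallower. Gtse1 and the condensin subunit Smc2 came next, at 0.062 ± 0.029 and -0.11 ± 0.056 (SE, adjusted p 0.659 and 0.683 in limma).

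Of 8 genes named as inhibitors of cyclin-dependent kinases, 1 was called. Cdkn1a, the p53 target p21, rose by 0.86 ± 0.058 (SE, adjusted p 0.0013 in limma), from 6.15, 6.08, 6.05 and 6.04 in WT to 6.81, 7.08, 6.88 and 6.97 in Cav3.1 KO, and by 0.72 and 0.93 within the classes of arrays. On the 6 arrays numbered together the difference was 0.84 and missed the threshold (adjusted p 0.0646 in limma). Cdkn3 and Cdkn2b had differences of 0.19 ± 0.072 and -0.15 ± 0.064 (SE, adjusted p 0.528 and 0.601 in limma).

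Cell types that could divide in this tissue were read from marker lists, as mean log2 intensity per array. All 5 markers of stem and progenitor cells with a probe were above the blank limit on every array, none was called, and their mean lay between 7.83 and 8.01 in WT and between 7.93 and 7.98 in Cav3.1 KO. The 5 markers of immature granule neurons, none called, ranged from 7.18 to 7.47 in WT and from 7.28 to 7.59 in Cav3.1 KO. Calb2 had the largest difference of them, 0.63, with 8.88 and 8.78 on Cav3.1 KO replicates 2 and 3. Neurod1 had 0.072, and Dcx, Sox11 and Igfbpl1 had -0.0039, -0.053 and -0.080. The 6 markers of oligodendrocyte precursors, none called, ranged from 7.41 to 7.56 in WT and from 7.46 to 7.67 in Cav3.1 KO. The 6 microglial markers, none called, ranged from 7.85 to 8.02 and from 7.78 to 7.93. These 4 ranges overlapped between the groups. Single oligodendrocyte precursor markers differed in direction, with 4 above and 2 below 0. Pdgfra was higher in Cav3.1 KO without overlap (difference 0.22), where 2.42% of all probes stood. Sox10 had -0.25, with groups that overlapped.

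The mean levels of the granule neuron and of the endothelial markers did not overlap, although single markers differed in direction. The mean of the 7 markers of dentate granule neurons, all above the blank limit on every array, ranged from 7.44 to 7.49 in WT and from 7.20 to 7.36 in Cav3.1 KO, with 1 of 7 called (C1ql2, lower). Of the 7, 5 had groups that did not overlap, with C1ql2, Plk5, Lct and Trpc6 on the lower side and Calb1 on the higher (difference 0.34). Prox1 and Dsp had differences of -0.053 and 0.043, with groups that overlapped. Of all tested probes, 0.288% were called and 4.95% did not overlap, 2.42% with Cav3.1 KO higher and 2.53% with it lower. The mean of the 7 endothelial markers ranged from 7.69 to 7.75 and from 7.49 to 7.60, with 1 of 7 called (Cldn5, lower). Of these, 3 had groups that did not overlap, Cldn5, Kdr and Tek, all on the lower side, where 2.53% of all probes stood. The endothelial mean rested largely on Cldn5, with a difference of -0.79. Kdr, Tek and Flt1 had -0.19, -0.12 and -0.087, and Pecam1, Cdh5 and Ly6c1 had -0.0052, 0.0060 and 0.15. The mean of the markers of thalamus and habenula was higher on Cav3.1 KO replicates 2 and 3 (7.56 and 7.51) than on the other 6 arrays (6.41 to 6.83), with none of 6 tested called. Tac2 was high on those 2 arrays only, at 8.82 and 8.63 against 6.17 to 6.48. Prkcd was also high on WT replicates 1 and 2, at 8.66 and 8.62. It read 9.01 and 9.18 on Cav3.1 KO replicates 2 and 3 and 6.96 to 7.13 on the rest. Rgs16 was likewise high on these WT arrays, at 7.36 and 7.33. The 6 choroid plexus markers, none called, ranged from 7.48 to 9.09 in WT and from 6.52 to 9.02 in Cav3.1 KO. Of all these markers with a probe, Tcf7l2 (thalamus) passed the blank limit on 1 array, Cdh5 (endothelium) on 6, Clic6 (choroid plexus) on 7 and the others on all 8. Of the 6 meningeal markers none was called, and their mean lay between 6.87 and 7.27 in WT and between 6.81 and 7.12 in Cav3.1 KO. The part of these shifts in the differences of the cell-cycle members was not tested. Without Cav3.1 KO replicates 2 and 3, and with WT replicates 1 and 2 kept, no member was called. The median differences were then -0.017 for S phase and -0.023 for mitosis.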

How the data were processed

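Dorsal dentate gyrus RNA of 4 WT and 4 Cav3.1 KO samples was hybridised in 1 colour (Cy5) to TORAY arrays. Per the file headers, the scanner files hold a median spot intensity at 635 nm, not normalised, with flags at 3 scan gains; how gains were merged was not given in the sources used here. The value table as deposited gives linear intensities with a median of 25 per array, which followed the spot intensity in a straight line with 0 near the blank mean; the name of its normalisation stays unknown, and it served as an alternative. The column headed background followed each spot's own brightness (r of logarithms 0.994 to 0.996) and was not used.

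Each array had 27456 spots, with 2736 blank and 96 negative controls. In R 4.3.3 with limma 3.58.1, normexp (offset 50) was fitted to spot intensities alone, control spots included, then probes were quantile normalised on the log2 scale. Probes above the 95th percentile of blank spots on at least 4 of 8 arrays, and never flagged as not good, were tested: 2239 dim and 84 flagged probes were left out, and all 31 members with a probe passed the first filter, Prc1 through the WT arrays alone. Differences in log2 intensity are Cav3.1 KO minus WT, from lmFit and eBayes over 21150 probes, with Benjamini-Hochberg adjustment over all of them at 0.05. Permutation tests ran over all 70 arrangements. The script was tested on simulated data. The number of arrays limits the precision. The platform annotation gave 20690 probes 1 gene symbol and 2783 none.

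The members, the lists of further genes and the markers were chosen with earlier results of these data known. Named are all members, the targeted gene, the 3 genes with the smallest p of each further list, and Cdkn1a. Alternatives were the replicate, array number and gain class blocks, each array left out, background, offset, scaling, filter, flags and the deposited table; the gain class, kept flags and the omission of 2 Cav3.1 KO arrays were added after seeing the data.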

Additional observations from a re-analysis of the deposited data

Results flagged for a closer look

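Of 82 groups of 4 arrays examined, 5 held an array far from the other 3, and chance flags about 1 in 20. Mcm2 read 6.46 on WT replicate 4, where the other WT arrays read 6.25 to 6.26. Ccne1 read 7.11 on Cav3.1 KO replicate 4, where the others read 6.90 to 6.93. Plk1 read 5.82 on WT replicate 1, where the others read 5.90 to 5.91. Bub1 read 5.97 on the same WT array, where the others read 5.76 to 5.79. The mean of the S phase members was 6.88 on Cav3.1 KO replicate 1, where the other Cav3.1 KO arrays read 6.93 to 6.94.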

How the results depend on the processing

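No member was called under any of the 22 alternatives with a test; the 2 gain classes on their own gave values only. The count of called probes over the whole array, 61 with all 8 arrays, was 8 with the replicate block, 7 on the 6 arrays numbered together, 36 with median scaling, 34 with the deposited value table, 23 with the gain class as a block, 17 without Cav3.1 KO replicates 2 and 3, and 16 to 49 when 1 array was left out (16 without WT replicate 4, 26 without WT replicate 3, 29, 33 and 34 without Cav3.1 KO replicates 2, 3 and 4, and 37 without WT replicate 1). The replicate numbers did not pair the arrays: deviations of arrays with the same number correlated at -0.11, -0.077, -0.075 and 0.011. Members lay above the blank spots on all arrays in 26 to 29 cases under the other limits and with each array left out.

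The median S phase difference, -0.018, was -0.097 with the deposited value table, -0.050 with the gain class as a block and -0.048 within the steeper class; the median mitosis difference, -0.019, was -0.096 with the deposited table. In that table the median over all probes was -0.066 and 67.5% of all probes lay below 0, with 25 of 28 members. Cdkn1a kept its direction but missed the threshold with the replicate block (difference 0.86, adjusted p 0.0590 in limma) and on the 6 arrays numbered together (0.84, 0.0646), with adjusted p over a range of 6.7e-05 to 0.0646. Of 715 member values under all 24 alternatives, 99 had the other sign, and 21 members changed sign at least once. Mcm4, Mcm5, Tyms, Ccnd1, Plk1, Aurka, Cdca8, Top2a and Prc1 did not, though Prc1 passed the filter through the WT arrays alone. In the 22 alternatives with a test, a sign change counted as a reversal only where the unadjusted limma p was under 0.05 there or with all arrays. None did. The 2 gain classes on their own have no test, and within the steeper class the difference of Aurkb was 0.60, against -0.022 with all arrays. The causes were not tested. Signal over the blank spots limits the dim members, with the widest blank-subtracted intervals for Bub1, Mcm3, Prc1 and Plk1.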
